A study of Mus musculus with 8 samples.

Results

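The Hox clusters were examined in lists of open chromatin regions from mouse embryonic stem cells. The members were 38 Hox genes, taken by symbol from a RefSeq gene table of 21887 protein-coding genes. The table is built on GRCm38.p6, which has the same coordinates as mm10, the build of the files. With them were taken all regions over the 4 clusters, Hoxa on chromosome 6, Hoxb on chromosome 11, Hoxc on chromosome 15 and Hoxd on chromosome 2, and over 50 kb on each side of each cluster. This gave 30 of 48730 regions in Ubc9-depleted cells, 25 of 46847 in their control cells, 15 of 58039 in H1 triple-knockout cells and 33 of 55489 in H1 wild-type cells.

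The regions come from ATAC-seq, in which a transposase cuts and tags accessible DNA, in 8 samples forming 4 groups of 2 replicates. Ubc9, the enzyme that passes SUMO proteins on to their targets, was depleted in the v6.5 line by 72 hours of doxycycline in a TET-OFF design, and the control was isogenic v6.5 cells. The other pair consisted of cells with the genotype H1.2-/-H1.3-/-H1.4-/-, which lack 3 genes for linker histones, the proteins that bind DNA between nucleosomes, and of H1 wild-type cells from the same published source. All cells were kept for 4 passages in 2i/LIF, a medium that holds stem cells in the naive state, and 50000 cells went into each reaction. The labels name doxycycline for the depletion alone, so the drug and the loss of Ubc9 cannot be told apart. How many clones each line stands for and how the TET-OFF allele is driven are not given in the sources used here.

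Both replicates of a group were merged into 1 deposited list, so the spread between replicates cannot be seen and no difference was tested. A region is called unpartnered, or present in 1 list "only", when the other list of its pair has nothing overlapping it. A "gene end" is the 1000 bp on each side of either annotated end of a gene. Scores are the authors' own, 1 per region, with a minimum of 50, and serve to rank the regions of a list. No read depth is known for any list, and a region missing from a list may lie just under the authors' threshold.

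Hox genes encode homeodomain transcription factors that give cells their place along the body axis. They lie in clusters in which the order of the genes, numbered as paralog groups from 1 at the anterior end to 13 at the posterior end, follows the order in which they are switched on. In embryonic stem cells most Hox genes are silent and marked by Polycomb complexes, which modify histones and compact chromatin, and retinoic acid and Wnt signals release them as cells differentiate.

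Sequences are shown first for promoters of genes whose gene-end regions differed between the lists of a pair. RefSeq promoter sequences, from 250 bases before to 50 bases after a gene's start on GRCm38.p6, were found for 22 of the 38 genes, 24 sequences in all. Among the 24, regions of Ubc9-depleted cells overlapped 7, those of Ubc9 control cells 5, those of H1 triple-knockout cells 3 and those of H1 wild-type cells 5. The first 3 sequences belong to genes with a gene-end region in 1 list of a pair only, and capitals mark the bases inside a region of H1 wild-type cells. Hoxa5 acts in the neck and thorax and in the lung, and Hoxa13 and Hoxd13 pattern digits and the genital tract.
Hoxa5 promoter, chr6:52204538-52204837, minus strand: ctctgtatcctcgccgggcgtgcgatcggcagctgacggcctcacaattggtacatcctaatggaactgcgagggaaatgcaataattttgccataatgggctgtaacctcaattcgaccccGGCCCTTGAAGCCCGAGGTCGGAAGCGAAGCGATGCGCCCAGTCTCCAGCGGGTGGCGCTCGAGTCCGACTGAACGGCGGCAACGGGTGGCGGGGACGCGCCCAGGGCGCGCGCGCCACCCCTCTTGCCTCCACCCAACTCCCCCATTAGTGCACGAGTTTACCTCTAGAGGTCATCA
Hoxa13 promoter, chr6:52260831-52261130, minus strand: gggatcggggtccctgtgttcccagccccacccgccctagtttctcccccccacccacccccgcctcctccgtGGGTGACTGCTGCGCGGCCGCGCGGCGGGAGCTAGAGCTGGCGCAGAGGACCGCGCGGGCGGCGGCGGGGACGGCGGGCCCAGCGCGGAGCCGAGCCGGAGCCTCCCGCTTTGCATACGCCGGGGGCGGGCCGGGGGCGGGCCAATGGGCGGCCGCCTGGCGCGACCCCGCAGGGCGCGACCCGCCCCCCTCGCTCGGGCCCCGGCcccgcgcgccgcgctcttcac
Hoxd13 promoter, chr2:74667975-74668274, plus strand: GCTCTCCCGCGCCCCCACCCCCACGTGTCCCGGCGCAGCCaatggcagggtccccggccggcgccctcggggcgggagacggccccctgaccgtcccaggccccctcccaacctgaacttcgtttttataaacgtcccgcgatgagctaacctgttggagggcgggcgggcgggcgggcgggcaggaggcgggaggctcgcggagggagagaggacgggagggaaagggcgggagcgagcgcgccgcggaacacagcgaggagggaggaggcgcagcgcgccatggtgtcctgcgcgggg
Regions of triple-knockout cells covered 0 bases of the Hoxa5, Hoxa13 and Hoxd13 sequences, and those of wild-type cells covered 178 bases at Hoxa5, 206 at Hoxa13 and 40 at Hoxd13. In the Ubc9 pair, regions of depleted cells covered 256 bases at Hoxa5 and those of control cells 0. Depleted cells had 300 bases covered at Hoxa13 and control cells 253, and at Hoxd13 depleted cells had 300 and control cells 179. The Hoxd9 promoter, not shown because both H1 lists had a gene-end region there, went the other way in the H1 pair. Regions of triple-knockout cells covered 195 of its bases and those of wild-type cells 0.

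Another pair of promoters was chosen after their values were seen, one covered in a single list and one covered in all 4. Hoxd11 and Hoxd10, which pattern the forelimb and the lumbar spinal cord, both have a start site inside their annotated gene. Capitals mark the bases inside a region of Ubc9-depleted cells at Hoxd11 and of H1 triple-knockout cells at Hoxd10.
Hoxd11 internal promoter, chr2:74682073-74682372, plus strand: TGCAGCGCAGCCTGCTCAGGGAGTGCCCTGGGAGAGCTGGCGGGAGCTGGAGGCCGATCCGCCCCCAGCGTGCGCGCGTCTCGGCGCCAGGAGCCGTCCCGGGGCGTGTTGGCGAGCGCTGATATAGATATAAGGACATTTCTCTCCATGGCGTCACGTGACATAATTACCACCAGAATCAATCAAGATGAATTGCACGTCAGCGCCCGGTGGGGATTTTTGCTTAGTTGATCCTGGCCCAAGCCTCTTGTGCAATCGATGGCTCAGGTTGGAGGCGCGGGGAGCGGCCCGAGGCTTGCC
Hoxd10 promoter, chr2:74691641-74691940, plus strand: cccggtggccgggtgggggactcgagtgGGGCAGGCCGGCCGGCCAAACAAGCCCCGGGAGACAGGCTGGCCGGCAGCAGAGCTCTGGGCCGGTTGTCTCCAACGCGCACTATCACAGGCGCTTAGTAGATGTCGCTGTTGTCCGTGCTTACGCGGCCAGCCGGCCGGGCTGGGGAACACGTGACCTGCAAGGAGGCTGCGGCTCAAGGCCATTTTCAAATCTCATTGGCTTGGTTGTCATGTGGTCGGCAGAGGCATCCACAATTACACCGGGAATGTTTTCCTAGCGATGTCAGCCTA
All 300 bases of the Hoxd11 sequence lay in a region of depleted cells (score 194), and 0 in each of the other 3 lists. At Hoxd10 the covered length was 300 bases in depleted cells, 300 in Ubc9 control cells, 272 in triple-knockout cells and 268 in H1 wild-type cells.

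The 24 Hox promoter sequences come mostly from Hoxa and Hoxd, with Hoxb1, Hoxb4 and Hoxb8 from Hoxb and Hoxc4 alone from Hoxc. These Hox promoters were rich in G and C. Their median GC content was 57.7% and their median number of CpG dinucleotides 14.5, against 52.7% and 7 over the 32851 promoter sequences of the table. The CCAAT box, searched as CCAAT on both strands, was found in 62.5% of the Hox promoters and 37.4% of all promoters. The GC box, searched as GGGCGG on both strands, was found in 41.7% of the Hox promoters and 35.7% of all promoters. The TATA box, searched as TATAAA on both strands, was found in 16.7% of the Hox promoters and 13.6% of all promoters. The motifs do not overlap in their letters, and a match is a description of the sequence alone.

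The lists held regions at most stem cell markers. Of 12 embryonic stem cell markers, a gene-end region was present at 8 in Ubc9-depleted cells, 9 in Ubc9 control cells, 9 in H1 triple-knockout cells and 9 in H1 wild-type cells. Nanog had one in all 4 lists, and Pou5f1, Esrrb and Lin28a had one in none. Of 15 markers of fibroblasts and feeder cells a gene-end region was present at 3 in Ubc9-depleted, 3 in Ubc9 control, 3 in triple-knockout and 4 in H1 wild-type cells, and their part in the results was not tested. Over all genes the shares were 54.4% in Ubc9-depleted, 53.1% in Ubc9 control, 51.4% in triple-knockout and 51.7% in H1 wild-type cells. At the deleted genes, H1f2 (H1.2) had 0 bp under regions of triple-knockout cells and 725 bp under those of wild-type cells. H1f3 (H1.3) had 0 bp in triple-knockout cells and 242 bp in wild-type cells, and H1f4 (H1.4) had 20 bp in triple-knockout cells and 38 bp in wild-type cells. Over whole lists, 45.6% of the regions of Ubc9-depleted cells, 43.3% of those of control cells, 31.4% of those of triple-knockout cells and 28.8% of those of wild-type cells had no partner.

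Most Hox genes had no open gene end in any list. Of the 38, 22 had none, against 37.8% of the 21887 protein-coding genes, 16 had one in at least 1 list, and 5 had one in all 4 lists, against 43.0% of all genes. By list, 13 Hox genes had one in Ubc9-depleted cells, against 54.4% of all genes, and 11 in Ubc9 control cells, against 53.1%. In triple-knockout cells 5 had one, against 51.4% of all genes, and in H1 wild-type cells 13, against 51.7%. The 22 comprised 4 Hoxa, 7 Hoxb, 6 Hoxc and 5 Hoxd genes. In Hoxa they were Hoxa2, Hoxa3, Hoxa7 and Hoxa11, and in Hoxb they were Hoxb1, Hoxb2, Hoxb3, Hoxb6, Hoxb7, Hoxb8 and Hoxb13. In Hoxc they were Hoxc4, Hoxc5, Hoxc8, Hoxc9, Hoxc11 and Hoxc12, and in Hoxd they were Hoxd3, Hoxd4, Hoxd10, Hoxd11 and Hoxd12. Some of these hold a region farther inside, as at Hoxd10, so an empty gene end is not a closed gene.

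**Figure D1:**
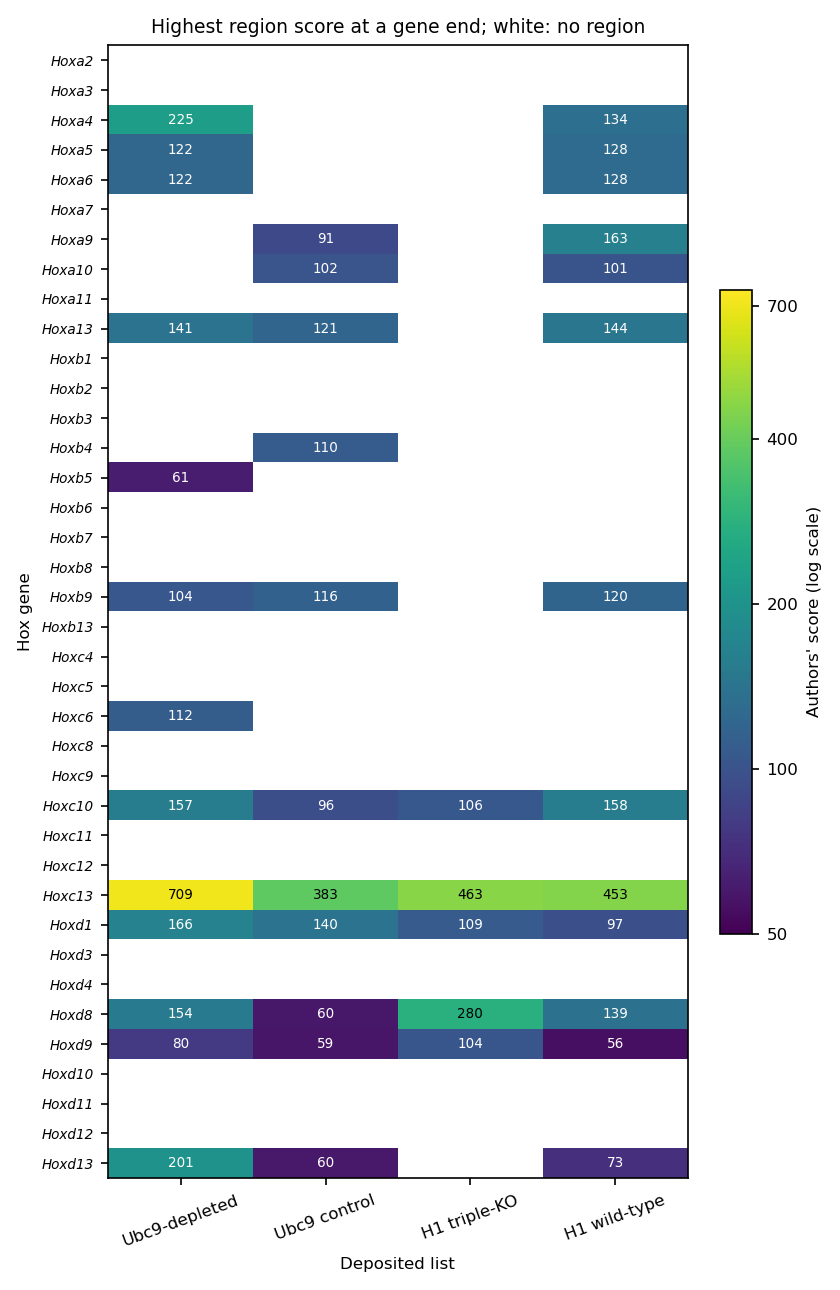
Highest authors' score of a region at an end of each Hox gene (rows) in the 4 deposited lists (columns), on a logarithmic colour scale, with white where there was no region. Hoxc13 carries the highest score in each list, and the column of H1 triple-knockout cells is empty for all Hoxa and Hoxb genes.

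The map of scores by gene shows that the 5 genes with a gene-end region in all lists were Hoxc10, Hoxc13, Hoxd1, Hoxd8 and Hoxd9. Hoxc13, which directs hair and nail formation, scored 709 in Ubc9-depleted cells, 383 in Ubc9 control cells, 463 in H1 triple-knockout cells and 453 in H1 wild-type cells. Hoxc10, a gene of lumbar motor neurons, scored 157 in Ubc9-depleted cells, 95.7 in Ubc9 control cells, 106 in triple-knockout cells and 158 in H1 wild-type cells. Hoxd1, at the anterior end of its cluster, scored 166 in Ubc9-depleted cells, 140 in Ubc9 control cells, 109 in triple-knockout cells and 96.8 in H1 wild-type cells. Both Hoxc genes lie in the posterior part of their cluster, and Hoxd1 had an open end in every list, while its paralog Hoxb1 had one in none.

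Merging overlapping regions of the 4 lists gave 46 sites over the clusters and flanks, 20 at Hoxa, 9 at Hoxb, 6 at Hoxc and 11 at Hoxd. Of these, 10 were present in all 4 lists and 21 in 1 list. At Hoxc 4 of 6 sites were in all 4 lists, at Hoxd 3 of 11, at Hoxb 1 of 9 and at Hoxa 2 of 20. The sites common to all lists included those at the ends of Hoxc13, Hoxc10, Hoxd1 and Hoxd9, sites inside Hoxa3, Hoxc6 and Hoxd10, and a site in the long gap between Hoxb13 and Hoxb9. A further one, between Hoxc12 and Hoxc13, scored 345 in Ubc9-depleted cells, 265 in Ubc9 control cells, 147 in triple-knockout cells and 320 in H1 wild-type cells.

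**Figure D2:**
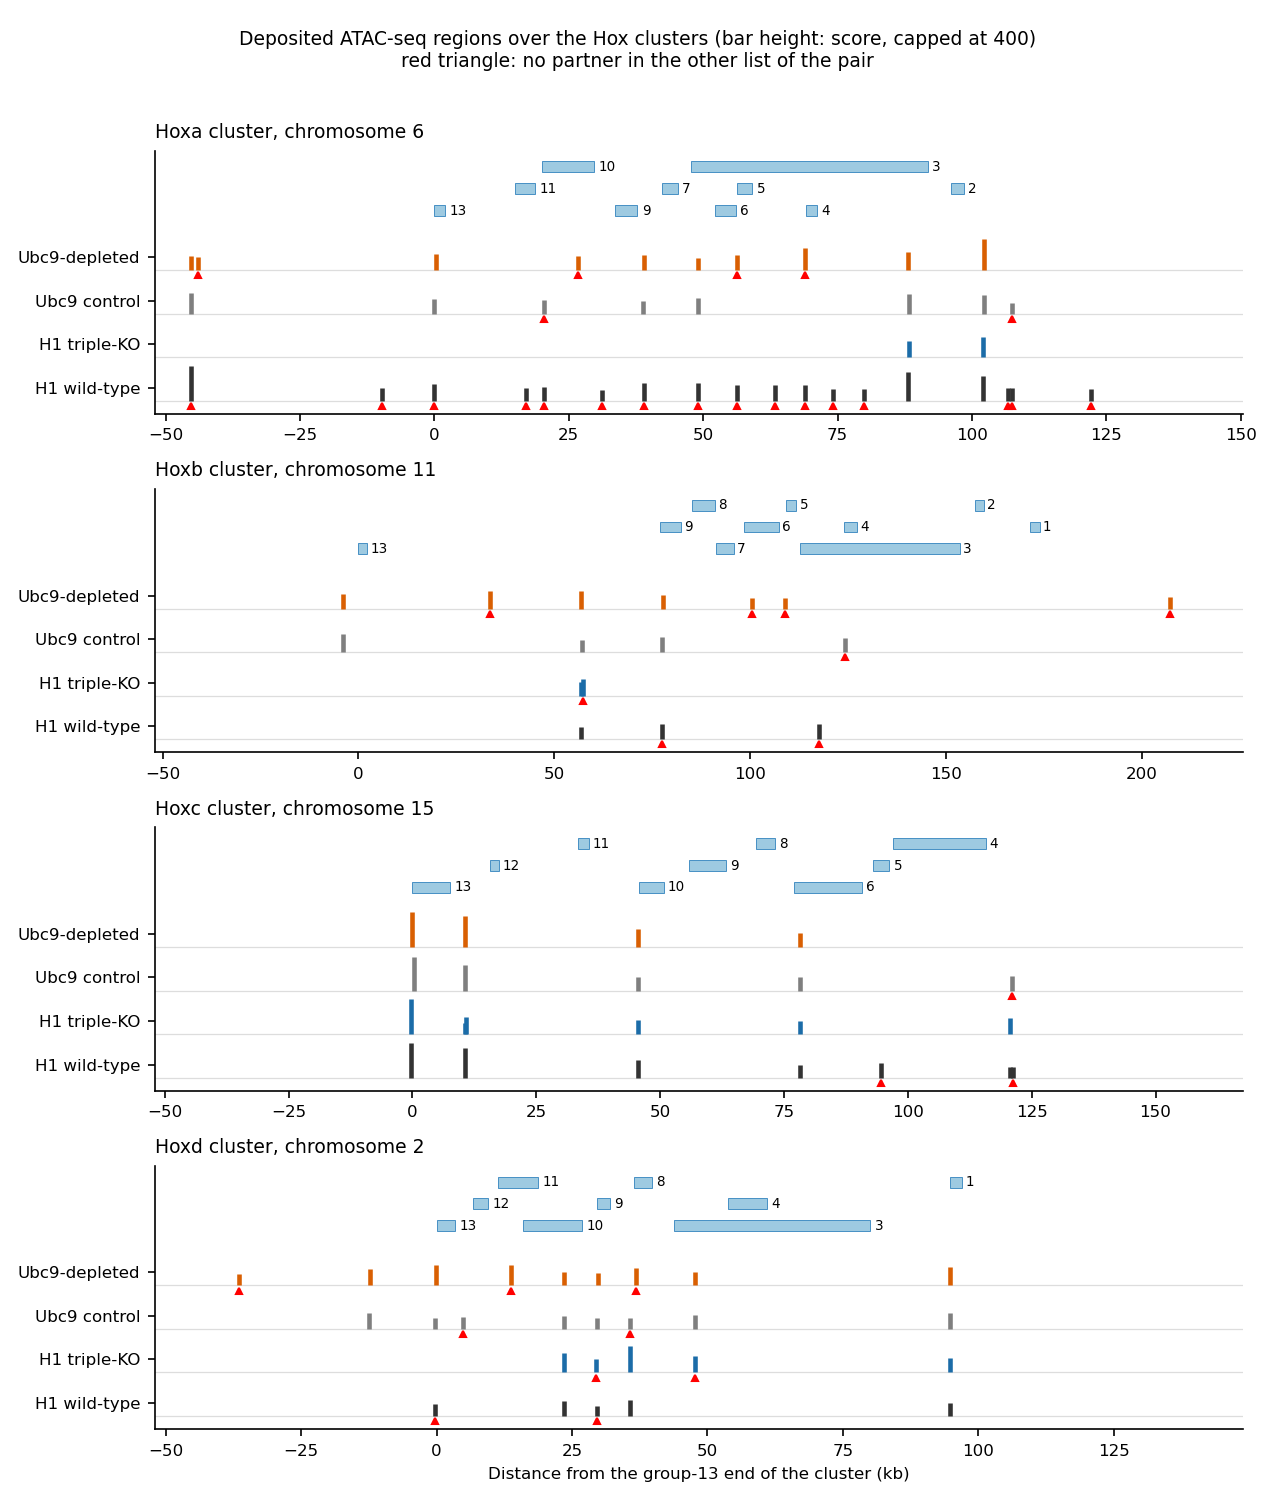
Position of each deposited region over the Hox clusters and 50 kb flanks, in kb from the end of the cluster that holds the group 13 gene, with genes as blue boxes numbered by paralog group. Bars stand for regions, their height rises with the authors' score up to 400, and red triangles mark regions with no partner in the other list of the pair. At Hoxa, 16 of the 18 regions of H1 wild-type cells carry a triangle and the row of triple-knockout cells holds 2 regions.

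Setting H1 triple-knockout beside wild-type cells asks how the opening of chromatin depends on linker histones. At the Hox clusters the triple-knockout list held fewer regions, 15 against 33 in wild-type cells. Without a partner were 3 of the 15 regions of triple-knockout cells and 22 of the 33 of wild-type cells, against 31.4% of the whole triple-knockout list and 28.8% of the whole wild-type list. Most of the difference lay at Hoxa, where triple-knockout cells had 2 regions and wild-type cells 18, of which 0 of 2 in triple-knockout cells and 16 of 18 in wild-type cells had no partner. At the other 3 clusters together triple-knockout cells had 13 regions, 3 of them unpartnered, and wild-type cells 15, of which 6 were unpartnered.

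No Hox gene had an open gene end in triple-knockout cells only (0 of the 25 without one in wild-type cells), against 9.21% over all genes. Of the 13 Hox genes with one in wild-type cells, 8 had none in triple-knockout cells, against 9.24% over all genes. The 8 were Hoxa4, Hoxa5, Hoxa6, Hoxa9, Hoxa10, Hoxa13, Hoxb9 and Hoxd13. All 6 Hoxa genes with an open end in wild-type cells were among them. By position, 1 of 2 genes of groups 1 to 4, 2 of 3 of groups 5 to 8 and 5 of 8 of groups 9 to 13 had no open end in triple-knockout cells.

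**Figure D3:**
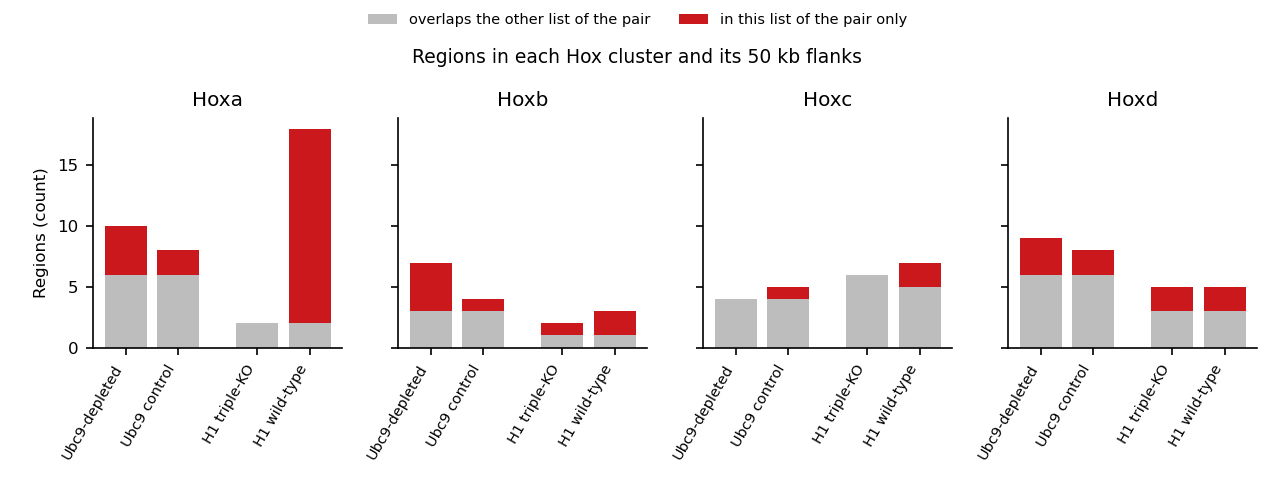
Number of deposited regions over each Hox cluster and its 50 kb flanks in the 4 lists, split into regions that overlap the other list of the pair (grey) and regions that do not (red). The red part is largest in H1 wild-type cells at Hoxa, 16 of 18 regions.

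The Hoxa gene ends open in wild-type cells only lay between Hoxa4 and Hoxa13, and triple-knockout cells had no region at any of these ends. Hoxa4, a gene of the neck region, had none in triple-knockout cells and one of score 134 in wild-type cells, 183 bp outside the gene. Hoxa5 and Hoxa6 share 1 region of score 128, which lies over the start of Hoxa5 and within reach of the 3′ end of Hoxa6. The region counted for Hoxa9, which maintains blood progenitors, scored 163 and lies 912 bp beyond the 3′ end of the gene, between Hoxa7 and Hoxa9. Hoxa10, a gene of the lumbar spine and uterus, had a region of score 101 inside the gene, 196 bp from its start. Hoxa13 had a region of score 144 over its start. Across these 6 genes the wild-type scores lay between 101 and 163.

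The single region of triple-knockout cells within the Hoxa cluster itself lay inside Hoxa3, a gene of pharyngeal arch derivatives, at chr6:52172566-52172749, and scored 131 there and 319 in wild-type cells. Beyond it, the triple-knockout list had no region from chr6:52172750-52314909, a stretch of 142.2 kb that takes in 8 Hox genes. The same stretch held 13 regions of wild-type cells, 8 of Ubc9-depleted cells and 5 of Ubc9 control cells. Regions of triple-knockout cells covered 381 bp of the Hoxa cluster and flanks, against 5388 bp in wild-type cells. All 57893 stretches between neighbouring regions of triple-knockout cells were counted whatever their length, including ones too short to hold many regions. Of these, 0.0104% held as many wild-type regions as the Hoxa stretch or more. Of the 5 that held more, 4 also lie on chromosome 6 and 1 on chromosome 8.

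The H1 lists keep a running number in each region's name that follows the order along a chromosome, and 73.0% of the numbers in triple-knockout cells and 74.1% in wild-type cells remain in the deposited lists. Across the empty Hoxa stretch 0 numbers are skipped, so the numbering gives no region there that was removed before deposit. Across the 462.0 kb without a region of triple-knockout cells that begins in Hoxb and runs past its flank, 8 numbers are skipped, and they cannot be placed within it. Of the 11 regions of wild-type cells only within the Hoxa cluster, 6 overlapped a region of a Ubc9 list, against 47.4% of all wild-type-only regions. The other 5 were found in wild-type cells alone of the 4 lists.

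The difference at Hoxa was not confined to the Hox genes. In the Mb on the Hoxa2 side of the cluster's centre, outside the flank, triple-knockout cells had 11 regions, 1 of them unpartnered, and wild-type cells 42, of which 32 were unpartnered. On the Hoxa13 side triple-knockout cells had 3 regions, 1 unpartnered, and wild-type cells 2, with 0 unpartnered. The gene Skap2, an adaptor of immune cell signalling on the Hoxa2 side, held 2 regions of triple-knockout cells, 0 of them unpartnered, and 10 of wild-type cells, 8 of them unpartnered. Snx10, a sorting nexin, held 1 region of triple-knockout cells, which had a partner, and 4 of wild-type cells, 3 of them unpartnered. From 51 to 53 Mb on chromosome 6, which takes in the cluster, 21.7% of 23 regions of triple-knockout cells and 73.1% of 67 of wild-type cells had no partner.

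**Figure D4:**
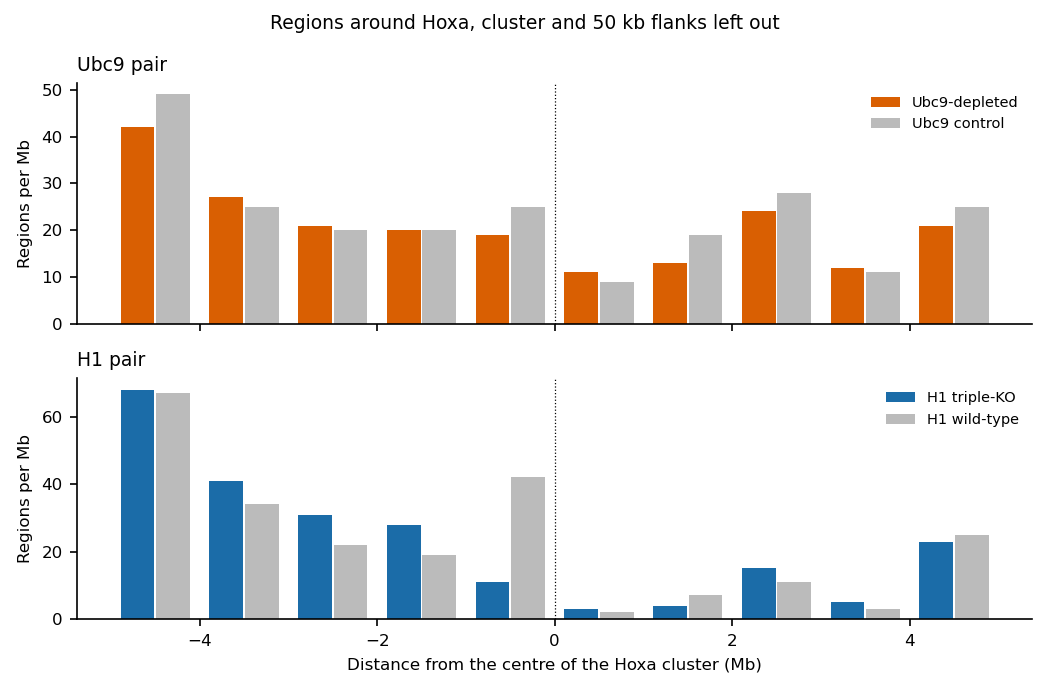
Number of deposited regions in each Mb around the centre of the Hoxa cluster, with the cluster and its 50 kb flanks left out, in the Ubc9 pair (top) and the H1 pair (bottom). In the Mb on the Hoxa2 side, at negative distances next to 0, triple-knockout cells have 11 regions and wild-type cells 42, while Ubc9-depleted cells have 19 and Ubc9 control cells 25.

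Chromosome 6 was itself uneven in the H1 pair. On the whole chromosome 22.7% of the regions of triple-knockout cells and 37.5% of those of wild-type cells had no partner. Up to 80 Mb, with 51 to 53 Mb left out, the share was 27.8% in triple-knockout and 29.1% in wild-type cells. From 80 Mb on it was 17.9% in triple-knockout and 42.1% in wild-type cells. Among 1262 windows of 2 Mb with at least 20 regions over both lists, the median ratio of triple-knockout to wild-type regions was 1.04, and the window from 52 Mb on chromosome 6 had the lowest, 0.233, with 7 regions of triple-knockout and 30 of wild-type cells. A stretch of the chromosome that differs between the lines and a difference at the Hoxa genes cannot be told apart in these lists.

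Over the whole H1 lists, regions of low score more often had no partner. In triple-knockout cells 0 of the 3 Hox regions scoring from 50 to 100 had no partner, against 57.9% of all such regions. The 3 unpartnered Hox regions of these cells were among the 8 that scored from 100 to 150, against 37.1% of all such regions. In wild-type cells 11 of 15 Hox regions scoring from 50 to 100 had no partner, against 51.3% of all such regions. From 100 to 150 it was 8 of 10 against 31.4%, from 150 to 200 it was 2 of 3 against 18.5%, and from 200 up it was 1 of 5 against 5.65%. Hoxa alone gave 8 of 8, 5 of 5, 2 of 2 and 1 of 3 in these score ranges. Outside Hoxa, from 50 to 100 it was 0 of 1 at Hoxb, 1 of 3 at Hoxc and 2 of 3 at Hoxd. Between 100 and 150 it was 2 of 2 at Hoxb, 1 of 1 at Hoxc and 0 of 2 at Hoxd. Above that only Hoxc had regions, with 0 of 1 and 0 of 2 unpartnered. The 1 high-scoring region without a partner lay 44939 bp beyond Hoxa13, at chr6:52305819-52306582, with a score of 491 in wild-type cells. It was present in both Ubc9 lists, with scores of 103 in depleted cells and 195 in control cells.

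**Figure D5:**
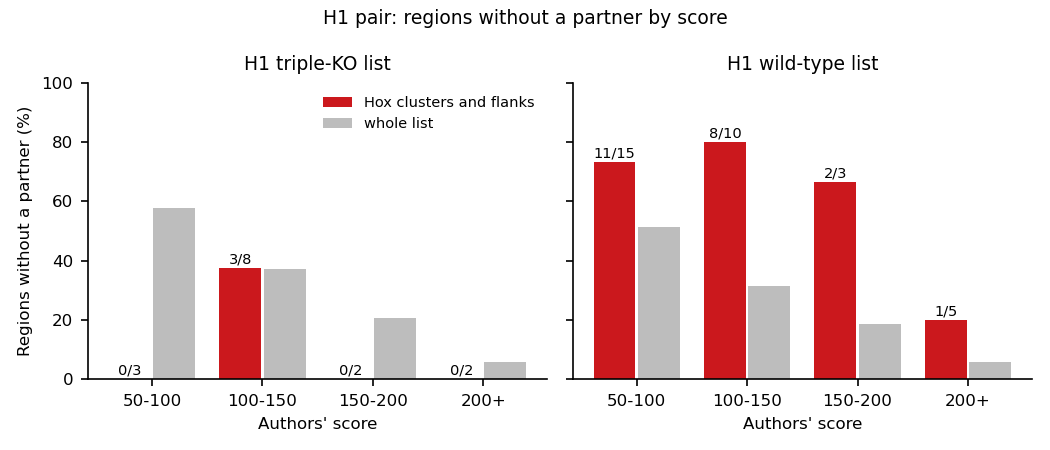
Percent of regions with no partner in the other list of the H1 pair, by the authors' score, for the Hox clusters and flanks (red, with counts above the bars) and for the whole list (grey), in triple-knockout cells (left) and wild-type cells (right). In wild-type cells the red bar is above the grey one in each score range, with 1 of 5 regions in the highest. At scores from 150 up, all unpartnered Hox regions of wild-type cells lie at Hoxa.

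Outside Hoxa the H1 lists differed at single sites, and the direction turned with the score minimum. With scores of at least 100 in both lists, 5 regions at Hoxb, Hoxc and Hoxd were in triple-knockout cells only and 3 in wild-type cells only. Among the 5, those at Hoxd1 (109) and beyond Hoxc4 (141) overlap wild-type regions that scored 96.8 and 57.7, below this minimum. Hoxb9, a gene of the thoracic segments, had no region in triple-knockout cells and one of score 120 in wild-type cells. Hoxd13 likewise had none in triple-knockout cells and one of score 72.9 in wild-type cells. In Hoxb the triple-knockout list had its 2 regions in the gap between Hoxb13 and Hoxb9 and no region from there on for 462.0 kb, a stretch that takes in 9 Hox genes and held 4 regions of wild-type cells. In the Hoxd cluster triple-knockout cells had 5 regions and wild-type cells 4. A region inside Hoxd3, which scored 141, was in triple-knockout cells only of its pair and also in both Ubc9 lists.

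At Hoxd8 and Hoxd9, genes of the trunk and limb, both H1 lists had an open gene end. Hoxd8 scored 280 in triple-knockout cells and 139 in wild-type cells, from overlapping regions that were 366 bp wide in triple-knockout cells and 253 bp wide in wild-type cells. Hoxd9 scored 104 in triple-knockout cells and 56.1 in wild-type cells, but these regions lie 113 bp apart, and that of wild-type cells is 30 bp wide. Of the 10 Hox regions shared one to one in this pair, 5 were wider in triple-knockout cells, against 46.4% over the whole lists.

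Setting Ubc9-depleted beside control cells asks how the opening of chromatin depends on SUMO conjugation. At the Hox clusters 11 of 30 regions of depleted cells were unpartnered, against 45.6% of their whole list, and 6 of 25 of control cells, against 43.3%. Open gene ends were found at 13 Hox genes in depleted cells, against 54.4% of all genes, and at 11 in control cells, against 53.1%. In depleted cells only they were found at 5 of the 27 genes without one in control cells, against 11.3% over all genes, and 3 of the 11 with one in control cells had none in depleted cells, against 7.57%.

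The 5 genes with an open end in depleted cells only were Hoxa4, Hoxa5, Hoxa6, Hoxb5 and Hoxc6. Hoxa4 had a region of score 225 and width 445 bp over one end of the gene in depleted cells and none in control cells. Hoxa5 and Hoxa6 shared 1 region of score 122. Hoxb5, which acts in the enteric nervous system and the shoulder, had one of score 61.2, near the authors' minimum. At Hoxc6 the region was present in both lists, with scores of 112 in depleted and 103 in control cells, but reached the gene-end window in depleted cells alone, at 906 bp from the gene's end against 1042 bp in control cells. Of the 5, 4 belong to paralog groups 5 to 8. In those groups 4 of 10 genes without an open end in control cells had one in depleted cells, against 11.3% over all genes. It was 1 of 9 in groups 1 to 4 and 0 of 8 in groups 9 to 13. The 4 rest on few regions, since Hoxa5 and Hoxa6 share 1, that of Hoxc6 overlaps one of control cells and that of Hoxb5 scored low.

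The 3 genes with an open end in control cells only were Hoxa9, Hoxa10 and Hoxb4. At Hoxa9 the region of depleted cells, with a score of 124, lies 1044 bp from the gene and so just outside the window, and the overlapping region of control cells scored 90.9 and was counted. At Hoxa10 depleted cells had a region of score 105 inside the gene, 2678 bp from its nearest end, and control cells one of score 102 closer to an end. The region of depleted cells, chr6:52233875-52234438, lies near an internal Hoxa10 promoter, chr6:52234890-52235189, that no list's regions overlapped. Internal starts were not counted as gene ends. Hoxb4, which expands blood stem cells, had no region in depleted cells and one of score 110 and width 193 bp inside the gene in control cells. Leaving out Hoxc6 and Hoxa9, whose regions are shared, 4 genes had an open end in depleted cells only and 2 in control cells only.

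Some Hox gene ends were open in both Ubc9 lists. Hoxa13 scored 141 in depleted and 121 in control cells, and Hoxb9 scored 104 in depleted and 116 in control cells. Hoxd13 scored 201 in depleted and 60.1 in control cells, and Hoxd9 scored 79.6 in depleted and 59.0 in control cells. Hoxd8 scored 154 in depleted and 59.8 in control cells. The Hoxd8 regions do not overlap, since that of depleted cells starts 52 bp inside the gene and that of control cells lies 461 bp outside it, with 513 bp between them. Scores of different lists are set side by side and give no direction.

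Regions of depleted cells covered more of the Hoxa and Hoxd clusters than those of control cells. At Hoxa they covered 3205 bp in depleted and 1384 bp in control cells, from 7 regions in depleted and 5 in control cells. At Hoxd they covered 4514 bp in depleted and 2151 bp in control cells, from 7 regions in depleted and 6 in control cells. At Hoxb it was 2052 bp in depleted and 1487 bp in control cells. Hoxc went the other way, with 1903 bp in depleted and 2530 bp in control cells. The whole lists covered 26.78 Mb in depleted and 21.71 Mb in control cells. All 6 Hoxd regions shared one to one, flanks included, were wider in depleted cells, by ratios of 1.06 to 2.85, and the widest ratio was at Hoxd9, with 1287 bp in depleted and 452 bp in control cells. Over all clusters 13 of 19 shared regions were wider in depleted cells, against 54.6% over the whole lists, and the largest ratio, 4.18, was at Hoxa13, with 1154 bp in depleted and 276 bp in control cells. In the H1 pair 3 of 3 shared Hoxd regions were wider in triple-knockout cells, by ratios of 1.02 to 1.45. The median width in the whole lists was 431 bp in depleted cells and 367 bp in control cells.

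Away from gene ends, depleted cells had a region of 1007 bp inside Hoxd11 that no other list held, over the internal promoter printed above. They also had a region of score 152 in the gap between Hoxb13 and Hoxb9, at chr11:96227620-96228049, and one of score 62.1 inside Hoxb6, both absent from the other 3 lists. Control cells had a region of score 83.6 between Hoxd13 and Hoxd12, likewise in their list alone. At Hoxc, 0 of 4 regions of depleted cells and 1 of 5 of control cells had no partner.

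The Hox clusters also hold microRNAs that repress Hox transcripts. The mature sequences of the miR-196 and miR-10 families, from RefSeq, are shown because the nearest open region to their genes varied between the lists. Capitals mark the seed, bases 2 to 8, which is the same within each family.
miR-196b-5p, Hoxa cluster: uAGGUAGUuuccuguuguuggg
miR-196a-5p, Hoxb and Hoxc clusters: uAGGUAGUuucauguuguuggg
miR-10a-5p, Hoxb cluster: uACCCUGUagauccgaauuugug
miR-10b-5p, Hoxd cluster: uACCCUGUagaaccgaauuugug
Mir196b lies in the empty Hoxa stretch, and its nearest region was 57332 bp away in triple-knockout cells and 156 bp away in wild-type cells, where that region scored 61.2. In the Ubc9 pair the distances were 3710 bp in depleted and 7842 bp in control cells. The copies of miR-196a in Hoxb and Hoxc, Mir196a-1 and Mir196a-2, had distances between 6284 bp and 13537 bp and between 6519 bp and 6640 bp over the 4 lists. Mir10a was nearest in Ubc9 control cells, at 1282 bp, through the region counted for Hoxb4, and farthest in triple-knockout cells, at 65538 bp. Mir10b was 9962 bp to 9980 bp from a region in 3 lists and 21914 bp in H1 wild-type cells, which lack the region inside Hoxd3. Mir615, inside Hoxc5, had a region 675 bp away in H1 wild-type cells and none within 15356 bp in the other lists.

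Of 24 long non-coding RNA genes over the clusters, 13 had no region in any list. The share over all long non-coding RNA genes was not computed, so these counts have no background. Among these were Hotair, which lies in Hoxc, and Hottip, at the posterior end of Hoxa. Regions of Ubc9-depleted cells overlapped 6 of the 24, those of control cells 6, those of triple-knockout cells 4 and those of H1 wild-type cells 8. Haglr, divergent to Hoxd1, had 1 region in each list, the one counted for Hoxd1. Hoxaas3, which overlaps Hoxa3, Hoxa5 and Hoxa6, had 2 regions in depleted and 1 in control cells, and 0 in triple-knockout against 2 in wild-type cells. ATAC-seq has no strand, so a gene and its antisense partner cannot be told apart.

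Regulators of Hox genes were described from lists of named genes. Of 30 Polycomb genes, a gene-end region was present at 28 in Ubc9-depleted cells and 26 in control cells, and at 24 in triple-knockout and 24 in wild-type cells. The shares over all genes were 54.4% in depleted, 53.1% in control, 51.4% in triple-knockout and 51.7% in H1 wild-type cells. Ring1, a ubiquitin ligase of Polycomb complexes, had one in depleted cells only (score 159) of the Ubc9 pair and in wild-type cells only (83.3) of the H1 pair. Pcgf5, a subunit of variant Polycomb complexes, had one in depleted cells only (154). Pcgf6 (84.4) and Phc3 (153) had one in triple-knockout cells only, and Pcgf1 (104) in wild-type cells only. In all, 2 of 4 Polycomb genes were open in depleted cells only, against 11.3% over all genes, and 0 of 26 in Ubc9 control cells only, against 7.57%. In the H1 pair 2 of 6 were open in triple-knockout cells only, against 9.21%, and 2 of 24 in wild-type cells only, against 9.24%.

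Of 21 activators and cofactors of Hox genes, 13 had a gene-end region in depleted and 14 in control cells, and 10 in triple-knockout and 12 in wild-type cells. Among all genes it was 54.4% in depleted, 53.1% in control, 51.4% in triple-knockout and 51.7% in wild-type cells. Cdx2, which turns on central Hox genes, had one in Ubc9 control cells only (91.3), through a region that overlaps one of depleted cells outside the window, and in H1 wild-type cells only (79.0). Rarg, a retinoic acid receptor, had one in depleted cells only (90.6) and in H1 wild-type cells only (125). Meis3, a homeodomain cofactor, had one in Ubc9 control cells only (94.9). The cofactor genes Pbx3, Pbx4, Meis1, Meis2, Pknox1 and Pknox2 had one in all 4 lists.

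Of 21 genes beside the clusters, 15 had a gene-end region in depleted and 13 in control cells, and 11 in triple-knockout and 14 in wild-type cells. Among all genes it was 54.4% in depleted, 53.1% in control, 51.4% in triple-knockout and 51.7% in wild-type cells. Within 50 kb of a cluster, Evx2, a homeobox gene next to Hoxd13, had none at its ends in any list but held a region inside the gene in Ubc9-depleted cells (133) and Ubc9 control cells (136). Ttll6, next to Hoxb13, had one in H1 wild-type cells only (131). That region, shared with Calcoco2, lies at the end of Ttll6 away from Hoxb13 and outside the 50 kb flank. Snx10 (134) and Mtx2 (130), beside Hoxa and Hoxd, also had one in wild-type cells only of the H1 pair, and Tax1bp1 (67.7) in triple-knockout cells only. In the Ubc9 pair Jazf1 (187) and Snf8 (155) had one in depleted cells only.

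Other developmental homeobox genes served as a comparison, since many such genes are Polycomb targets in stem cells. Polycomb marks were not measured here. Of 64 such genes, 31 had an open gene end in Ubc9-depleted cells and 25 in control cells, and 30 in triple-knockout and 27 in wild-type cells. Among all genes it was 54.4% in depleted, 53.1% in control, 51.4% in triple-knockout and 51.7% in wild-type cells. In the H1 pair 9 of 37 had one in triple-knockout cells only, against 0 of 25 Hox genes, and 6 of 27 in wild-type cells only, against 8 of 13 Hox genes. Gsc (128), Msx2 (112), Dlx5 (104), Lhx9 (104) and Lhx1 (99.9) led those in triple-knockout cells only, and Irx6 (173), Tlx2 (152), Mnx1 (122), Emx1 (102) and Barhl2 (67.6) those in wild-type cells only. In the Ubc9 pair 7 of 39 had one in depleted cells only, against 5 of 27 Hox genes, and Irx6 (58.0) was the 1 of 25 in control cells only, against 3 of 11 Hox genes. Vax2 (261), Gbx1 (123), Lhx3 (121), Irx5 (102) and Msx2 (96.6) led those in depleted cells only. These differences between gene sets rest on 1 list per group and were not tested.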

How the data were processed

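ATAC-seq was done on 8 samples in 4 groups of 2 replicates. Per the submitters' processing notes, the build was mm10, and MACS 1.4.2-1, Bowtie2, CASAVA 1.8.2 and Picard were used. Tool settings and any shift of reads for the transposase are not given in the sources used here. A group's replicates share 1 deposited list, per the labels. The authors' score, deposited per region, was taken as that of MACS, -10 log10 p, so that its minimum of 50 means a p of 1e-05, and was used within a list only. More than 2 decimals stood in 54.5% of the scores of Ubc9-depleted cells, 53.7% of those of Ubc9 control cells and 0 of those of either H1 list, so a Ubc9 score may not be a single MACS value, and the p is then not known. Regions of the H1 lists are as short as 1 bp and those of the Ubc9 lists at least 105 bp, so widths and covered lengths were compared within a pair.

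Regions overlapping by at least 1 bp were called shared. RefSeq gene ends took 1000 bp on each side. Overlaps were computed in Python 3.11.15 with pandas 2.3.3 and numpy 2.4.6, and checked on simulated regions, where 0 of 1500 disagreed with a direct comparison. With no counts of reads, the depth and precision are unknown and no interval, test or p-value was computed. The effects of 11 other settings are given at the end, and leaving out the Hoxa cluster was added after the data were seen.

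The members, the 6 gene lists and the rules were chosen with earlier results of these data known. Named were all member genes, genes beside the clusters within 50 kb, and up to 5 genes per list and pair with a gene-end region in 1 list only, by score. Promoters of member genes that met the same condition were shown where a region overlapped them. Skap2, Nanog, Esrrb, Lin28a, the cofactor genes, the deleted H1 genes and the Hoxd9, Hoxd10 and Hoxd11 promoters were named after their values were seen. Of 22 genes listed beside the clusters 21 matched the table. Some genes are not reported here.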

Additional observations from a re-analysis of the deposited data

How the results depend on the processing

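As reported, 11 Hox regions were in Ubc9-depleted and 6 in control cells only, and 3 in H1 triple-knockout and 22 in wild-type cells only; for gene ends the numbers were 5, 3, 0 and 8 genes. Of 64 recomputed counts over all clusters, 48 stayed within 1.5 times. With scores of at least 100 in both lists, 5 and 11 regions were in triple-knockout and wild-type cells only, and 2 genes had an end open in triple-knockout cells only. That last count was 1 gene each with equal numbers of top-scoring regions, regions of at least 50 bp, windows of 2500 bp or whole genes. Counting regions within 500 bp as shared left 1 region in triple-knockout cells only. With annotated starts of the 22 genes with a known strand, 2 and 1 genes were in depleted and control cells only and 4 in wild-type cells only. Without Hoxa, an alternative added after the data were seen, 7 regions and 2 genes were in depleted cells only and 4 regions and 1 gene in control cells only. In the H1 pair 3 regions and 0 genes were then in triple-knockout cells only, and 6 regions and 2 genes in wild-type cells only. Summed over the 4 clusters, wild-type-only counts exceeded triple-knockout-only counts in all 11 other settings run. At Hoxb, Hoxc and Hoxd together, only the settings that select regions by score departed from this. With scores of at least 100, 5 regions and 2 genes were in triple-knockout cells only. In wild-type cells only were 3 regions and 1 gene. The 2 genes, Hoxd1 and Hoxd9, have wild-type regions below this minimum, of scores 96.8 and 56.1. With equal numbers of top-scoring regions, 4 regions were in triple-knockout cells only and 3 in wild-type cells only. The gene counts were then equal, 1 in each direction. In the remaining settings wild-type cells had the higher count at these clusters. With a flank of 100 kb it was 11 regions against 4, and with windows of 2500 bp 4 genes against 1. At Hoxd alone, with scores of at least 100, 3 regions were in triple-knockout cells only and 0 in wild-type cells only. The region at Hoxd1 (109) counts among the 3 because the wild-type region it overlaps scored 96.8, below this minimum. With equal numbers triple-knockout cells had 2 and wild-type cells 0. With no flank or regions of at least 50 bp triple-knockout cells had 2 and wild-type cells 1. As reported both had 2, and with regions within 500 bp shared both had 1. With a flank of 100 kb triple-knockout cells had 2 and wild-type cells 4. No paired analysis was possible because each deposited list merges both replicates of its group, and for the same reason no replicate could be left out. Depth is unknown, so a region near the score minimum may be missing from a list for lack of reads.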
